A study of Mus musculus with 6 samples.

Results

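MHC class I antigen presentation was followed through 10 genes, chosen by name from the 23504 genes of the expression table and present in it without exception. They comprise the heavy chains H2-K1 and H2-D1, the light chain B2m, the peptide transport and loading genes Tap1, Tap2 and Tapbp, the immunoproteasome subunits Psmb8, Psmb9 and Psmb10, and the transactivator Nlrc5. RNA came from bone marrow-derived macrophages (BMMs) of C57BL/6 mice, which the study's methods describe as males 6 to 8 weeks old, grown with M-CSF. The control group (n = 3 libraries) received DMSO, the solvent, and the treated group (n = 3 libraries) received DASA-58, an activator of the glycolytic enzyme PKM2, for 3 days. The results of the study describe both groups as induced with RANKL, the cytokine that drives osteoclast formation, whereas its methods name RANKL only for the treated group and spell the compound DASA-48. No concentration is given for this experiment, and nothing states that the 3 libraries of a group came from separate animals or cultures, so the p-values measure only the spread between these libraries.

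Class I molecules show fragments of a cell's own proteins to cytotoxic T cells. The proteasome cuts proteins into peptides, the Tap1-Tap2 transporter carries the peptides into the endoplasmic reticulum, and tapasin, the product of Tapbp, holds an empty heavy chain with B2m beside the transporter until a peptide binds. Interferon gamma is the best-known inducer of this gene set, through Irf1 and Nlrc5, and macrophages carry the pathway at rest.

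Expression was given as FPKM, fragments scaled to exon length and to library depth, and the recovered depth was between 18191560 and 18968556 fragments per library. Markers of macrophages were abundant, with 12 of 12 measured and a summed level between 18823 and 19805 FPKM with DMSO and between 20353 and 22784 FPKM with DASA-58. Groups were compared with limma on log2(FPKM + 1), and adjusted p denotes the Benjamini-Hochberg value over the 10965 genes whose mean reached 1 FPKM. The added 1 makes the fold changes of weakly expressed genes too small, the more so the lower the gene. In bulk RNA, fewer cells of one type and less RNA per cell cannot be told apart.

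With DASA-58 the pathway did not move as a block. Tapbp was the 1 member of 10 that was lower at an adjusted p under 0.05, where 7.28% of all genes tested were lower, and 0 members were higher, where 4.24% of all genes were. At an unadjusted p under 0.05, 4 members were lower (Tap1, Tap2, Tapbp and Psmb8, against 18.0% of all genes) and 2 were higher (H2-D1 and B2m, against 9.83%). The same 4 genes had every DASA-58 library below every DMSO library, a pattern seen in 21.6% of all genes, and the same 2 had every DASA-58 library above, as did 11.8% of all genes. The other 4 members, H2-K1, Psmb9, Psmb10 and Nlrc5, overlapped between the groups. The median log2 fold change of the 10 members was -0.03, as was that of all genes tested. With weights from fragments recovered from the FPKM steps (voom), 3 members were lower (Tap1, Tap2 and Tapbp, against 12.1% of all genes) and 2 were higher (H2-D1 and B2m, against 6.77%). The same shares of all genes apply to the counts given for every gene list below.

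**Figure D1:**
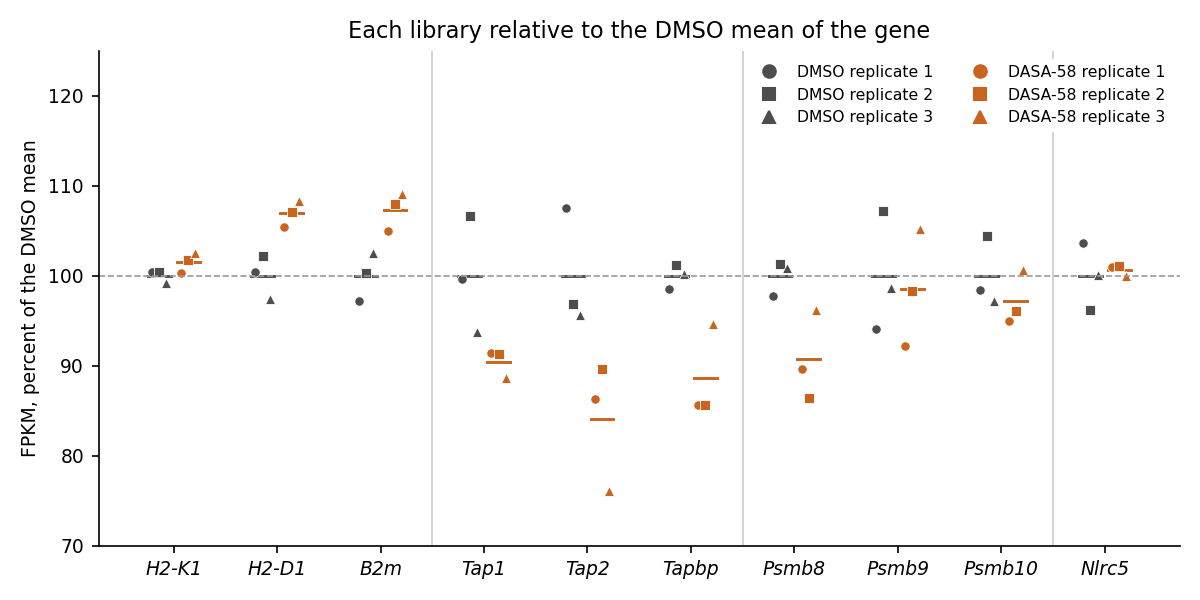
FPKM of the 10 class I pathway genes in each library as a percent of the gene's DMSO mean (dashed line at 100), with one point per library, symbols for replicates 1 to 3 and short bars for group means. H2-D1 and B2m sit above all DMSO libraries with DASA-58, Tap1, Tap2, Tapbp and Psmb8 sit below them, and H2-K1, Psmb9, Psmb10 and Nlrc5 overlap.

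The members spanned a wide range of levels. B2m was the highest at a DMSO mean of 3071 FPKM ± 83.0 (SD, n = 3) and ranked 6 among the 10965 genes tested by mean level. H2-D1 followed at 1248 FPKM ± 30.3 with rank 17, and H2-K1 at 733 FPKM ± 5.46 with rank 41. Below the chains of the class I molecule came the machinery that loads it. Tapbp stood at 91.2 FPKM ± 1.23, Psmb10 at 53.9 FPKM ± 2.07 and Tap1 at 23.1 FPKM ± 1.48. Psmb9 at 16.0 FPKM ± 1.07 and Psmb8 at 15.7 FPKM ± 0.302 overlapped in their DMSO libraries and were not distinguishable in level. Tap2 at 9.66 FPKM ± 0.635 and Nlrc5 at 7.11 FPKM ± 0.264 were the lowest. These levels depend on the exon length used as divisor. With the length of each gene's principal transcript in place of all annotated exons, Psmb9 (43.4 FPKM ± 2.89) and Tap1 (42.8 FPKM ± 2.74) became neighbours within their spread and Psmb8 fell below both (26.4 FPKM ± 0.508).

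**Figure D2:**
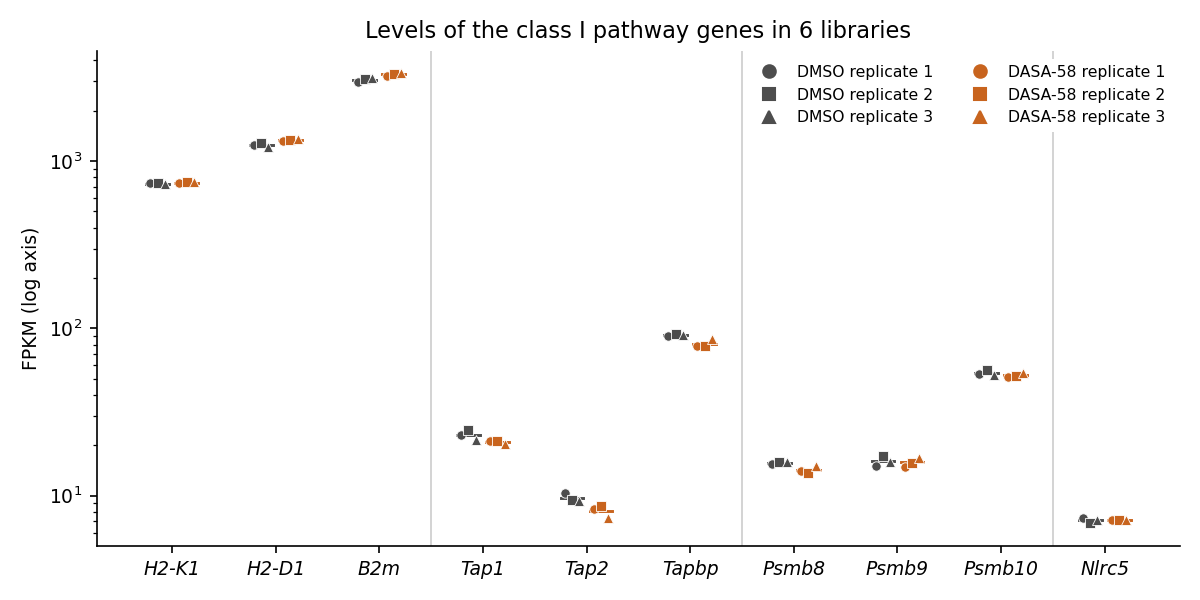
FPKM of the 10 genes on a log axis in each of the 6 libraries, with short bars for group means. The 3 chains of the class I molecule lie between 727 and 3350 FPKM and the other 7 genes between 6.84 and 92.3 FPKM.

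The class I heavy chains bind the peptide, and B2m is the light chain that every classical heavy chain needs to reach the cell surface. In mouse assembly GRCm38, H2-K1 (ENSMUSG00000061232) lies at chr17:33996017-34000347 on the minus strand, H2-D1 (ENSMUSG00000073411) at chr17:35262730-35267499 on the plus strand, and B2m (ENSMUSG00000060802) at chr2:122147686-122153083 on the plus strand. Their promoters are shown because these 3 genes share elements that the other members with a sequence did not hold together. The lines give 179 bases that end 1 base short of the RefSeq transcription start, 5′ to 3′ on the gene's own strand (RefSeq, GRCm38.p6), at chr17:34000349-34000527 for H2-K1 and chr2:122147507-122147685 for B2m. Capitals mark matches to a kappa B site, to the interferon-response type motif TTTCNNTT, to TGACG (core of the X2 box) and to CCAAT (Y box), each read on both strands.
H2-K1: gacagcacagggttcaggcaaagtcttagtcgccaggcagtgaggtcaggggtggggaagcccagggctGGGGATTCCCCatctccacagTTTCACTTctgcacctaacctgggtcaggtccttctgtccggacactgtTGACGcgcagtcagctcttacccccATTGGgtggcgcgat
B2m: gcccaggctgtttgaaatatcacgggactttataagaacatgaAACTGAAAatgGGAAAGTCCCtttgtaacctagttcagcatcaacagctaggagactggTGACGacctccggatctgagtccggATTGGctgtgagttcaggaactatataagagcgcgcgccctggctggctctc

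The kappa B and interferon-type elements of the 2 heavy chain genes were nearly the same, with 28 of 29 bases identical. They lie at chr17:34000430-34000458 (minus strand) for H2-K1 and at chr17:35262923-35262951 (plus strand) for H2-D1, and the H2-D1 stretch falls within the first exon of an alternative transcript in GENCODE.
H2-K1: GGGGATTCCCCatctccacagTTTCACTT
H2-D1: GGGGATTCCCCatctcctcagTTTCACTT
From TGACG to the inverted CCAAT, the span was 30 bases in H2-K1, H2-D1 and B2m alike. H2-K1 and H2-D1 shared 23 of these 30 bases, H2-K1 and B2m 13, and H2-D1 and B2m 12.
H2-K1: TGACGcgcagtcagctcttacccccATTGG
H2-D1: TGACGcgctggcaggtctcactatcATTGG
B2m: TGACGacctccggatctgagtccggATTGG

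Upstream sequence of 250 bases was held for 8 of the 10 members, all but Tap2 and Nlrc5. The spaced pair of TGACG and inverted CCAAT, with 8 to 40 bases between them, was present in H2-K1, H2-D1 and B2m and in 0.969% of 27025 genes with a promoter sequence. A kappa B site was present in the same 3 members and in 4.46% of genes, and TTTCNNTT in the same 3 and in 23.9% of genes. TGACG alone was found in 5 of the 8 members and 19.8% of genes, CCAAT alone in 6 and 37.5%. Tap1 and Psmb9, whose windows overlap, count the same TGACG and the same CCAAT. The palindromic motif TTCNNNGAA was found in Psmb8 and in 8.13% of genes. Matches describe letters in these windows and show nothing about binding in these cells.

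H2-K1 did not pass the test. Its level was 736, 736 and 727 FPKM in DMSO replicates 1 to 3 and 735, 746 and 752 FPKM in DASA-58 replicates 1 to 3. The groups overlapped, and DASA-58 replicate 1 fell between the DMSO libraries. The log2 fold change was 0.02 (95% interval -0.03 to 0.07, adjusted p = 0.57), from 34512 to 37183 fragments per library, so that a rise beyond 5.19% and a fall beyond 1.99% lie outside the interval.

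H2-D1 was read at 1254, 1276 and 1216 FPKM with DMSO and at 1316, 1337 and 1352 FPKM with DASA-58. Every DASA-58 library lay above every DMSO library. Its mean was 6.93% higher (log2 fold change 0.10, 95% interval 0.04 to 0.16, adjusted p = 0.054).

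B2m was read at 2985, 3079 and 3150 FPKM with DMSO and at 3224, 3314 and 3350 FPKM with DASA-58. The groups again did not overlap, and the mean was 7.33% higher (log2 fold change 0.10, 95% interval 0.04 to 0.17, adjusted p = 0.060). Both genes missed the threshold by a small margin, and under quantile normalization their log2 fold changes shrank to 0.03 for H2-D1 (adjusted p = 0.71) and 0.04 for B2m (adjusted p = 0.18). That method sets each value to the mean for its rank. Genes that stay near the top, as at ranks 17 and 6, are drawn towards no change, so the shrinkage cannot decide the question. Summed over H2-K1, H2-D1 and B2m, the share of all fragments was 0.777% ± 0.00745 with DMSO and 0.822% ± 0.0123 with DASA-58 (SD, n = 3).

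Within a library, the ratio of H2-K1 to H2-D1 was 0.587, 0.577 and 0.598 with DMSO and 0.559, 0.558 and 0.556 with DASA-58. All 3 treated libraries lay below all controls, and the difference of the log2 ratios was -0.07 (95% interval -0.12 to -0.03). An exact permutation test, two-sided, gave p = 0.10, which is the smallest value that 3 against 3 libraries allow. With quantile normalization the sign turned, at 0.02. The ratio of H2-K1 to its light chain B2m went from 0.239 ± 0.00798 to 0.226 ± 0.00198 without overlap (difference of the log2 ratios -0.08, exact permutation p = 0.10), and under quantile normalization the difference was -0.003. Since quantile normalization sets values of genes this high by their rank, the quantile values of these ratios cannot decide the question. H2-K1 and H2-D1 are paralogs: 8.79% of the 50-base stretches of the principal H2-K1 transcript and 14.3% of those of H2-D1 also occur in transcripts of another gene, most often other class I genes. At 100 bases these shares were 0 and 4.64%. How fragments matching several genes were counted is not given in the sources used here, and the read length is not given either.

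The transporter subunits and tapasin form the machinery that brings a peptide to the heavy chain. For all 3 genes the highest treated library lay below the lowest control, as in 21.6% of all genes. Together they took 0.0463% ± 0.000993 of the fragments with DMSO and 0.0411% ± 0.00112 with DASA-58. Tapbp (ENSMUSG00000024308, chr17:33915899-33929292, plus strand) encodes tapasin, the bridge between the transporter and the heavy chain. It was read at 89.9, 92.3 and 91.4 FPKM with DMSO and at 78.1, 78.0 and 86.3 FPKM with DASA-58. DASA-58 replicate 3 was closest to the controls, and it was still below all of them. The mean fell by 11.4% (log2 fold change -0.17, 95% interval -0.27 to -0.08, adjusted p = 0.037). The call was lost when DMSO replicate 1, 2 or 3, or DASA-58 replicate 1 or 2, was left out (adjusted p between 0.085 and 0.11), and it held without DASA-58 replicate 3 (adjusted p = 0.012). Over all 17 alternatives its adjusted p lay between 6.2e-04 and 0.14, the fitted change stayed negative, and 7 of 17 kept the call.

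Tap1 (ENSMUSG00000037321, chr17:34187553-34197225, plus strand) and Tap2 (ENSMUSG00000024339, chr17:34203527-34216321, plus strand) encode the paired chains of the peptide transporter. Tap1 was read at 22.98, 24.6 and 21.6 FPKM with DMSO and at 21.1, 21.1 and 20.4 FPKM with DASA-58. The highest treated library lay just under the lowest control, and the log2 fold change was -0.14 (95% interval -0.25 to -0.03, adjusted p = 0.11). Tap2 was read at 10.4, 9.36 and 9.24 FPKM with DMSO and at 8.34, 8.67 and 7.35 FPKM with DASA-58. Its mean difference was the largest among the members at -16.0%, and its treated libraries also varied the most relative to their mean, with a coefficient of variation of 8.46% (log2 fold change -0.23, 95% interval -0.38 to -0.07, adjusted p = 0.070, 527 to 721 fragments per library). With voom weights on the recovered fragments the adjusted p was 0.018 for Tap1 and 0.0088 for Tap2.

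Parts of these genes overlap others in the annotation. Of the Tapbp exons, 29.0% overlap Zbtb22 on the same strand or Gm19412 on the opposite strand, and of the Tap2 exons 18.5% overlap Gm15821 and Gm20496 on the opposite strand. Whether the counting used strand is not given in the sources used here, so fragments of overlapping genes cannot be told apart in those stretches.

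**Figure D3:**
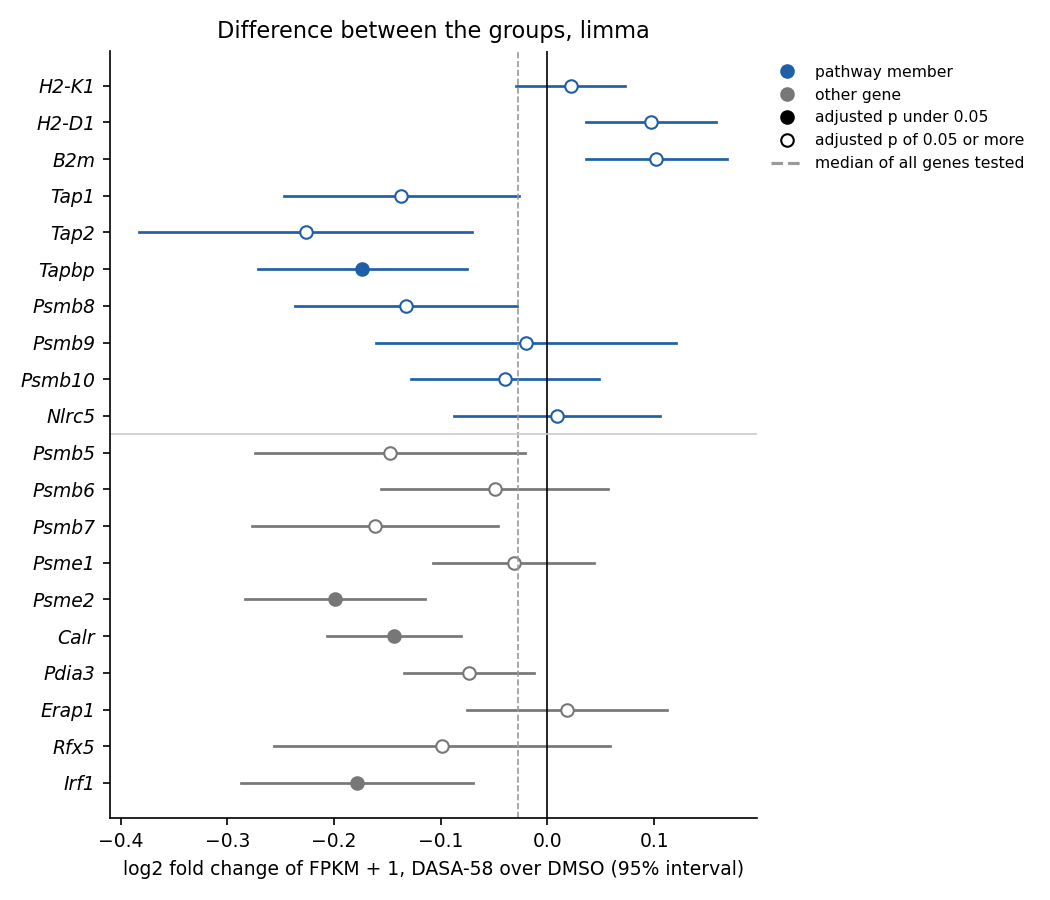
Log2 fold change of FPKM + 1 (DASA-58 over DMSO) with its 95% interval from limma for the 10 members (blue) and for the constitutive subunits, activators, loading genes and regulators (grey); filled points have an adjusted p under 0.05 and the dashed line is the median of all genes tested (-0.03). Among the members only Tapbp is filled, and among the other genes shown Psme2, Calr and Irf1 are.

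The immunoproteasome subunits Psmb8, Psmb9 and Psmb10 take the places of the constitutive catalytic subunits Psmb5, Psmb6 and Psmb7, and shift cleavage towards peptides that fit class I grooves. None of the 3 passed the adjusted threshold with limma or voom, and 1 of them, Psmb8, was lower at an unadjusted p under 0.05, as were 18.0% of all genes. Psmb8 (ENSMUSG00000024338, chr17:34197721-34201454, plus strand) was read at 15.4, 15.9 and 15.9 FPKM with DMSO and at 14.1, 13.6 and 15.1 FPKM with DASA-58, without overlap (log2 fold change -0.13, 95% interval -0.24 to -0.03, adjusted p = 0.10). Psmb9 (ENSMUSG00000096727, chr17:34181987-34187764, minus strand) was read at 15.1, 17.2 and 15.8 FPKM with DMSO and at 14.8, 15.7 and 16.8 FPKM with DASA-58, and the groups overlapped over most of their range (log2 fold change -0.02, 95% interval -0.16 to 0.12, adjusted p = 0.87). The sign of the Psmb9 value turned under quantile normalization and under centring on the median. Psmb10 (ENSMUSG00000031897, chr8:105935735-105938444, minus strand) was read at 53.1, 56.3 and 52.4 FPKM with DMSO and at 51.2, 51.8 and 54.3 FPKM with DASA-58, again with overlap (log2 fold change -0.04, 95% interval -0.13 to 0.05, adjusted p = 0.55). Their summed share of fragments was 0.0194% ± 0.000780 with DMSO and 0.0186% ± 0.000828 with DASA-58.

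Psmb9 and Tap1 are divergent neighbours that start from one stretch of chromosome 17. Their RefSeq starts, at 34187330 for Psmb9 on the minus strand and 34187556 for Tap1 on the plus strand, leave 225 bases between them. The upstream windows of the 2 genes both cover this stretch, and its 1 TGACG and 1 CCAAT are counted for each gene. In GENCODE, an alternative Psmb9 first exon reaches across and overlaps Tap1 by 212 bases. Tap1 did not overlap between the groups while Psmb9 did, and the difference between the responses of the 2 genes was not tested.

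The constitutive counterparts were measured beside them. Psmb5 was 75.5, 84.1 and 72.8 FPKM with DMSO and 70.1, 72.1 and 67.0 FPKM with DASA-58 (log2 fold change -0.15, adjusted p = 0.13). Psmb6 was 109, 119 and 106 FPKM with DMSO and 105, 106 and 111 FPKM with DASA-58 (log2 fold change -0.05, adjusted p = 0.54). Psmb7 was 27.2, 29.3 and 26.0 FPKM with DMSO and 24.2, 23.6 and 25.6 FPKM with DASA-58 (log2 fold change -0.16, adjusted p = 0.078). None passed the adjusted threshold with limma. Psmb5 and Psmb7 did not overlap between the groups, were lower at an unadjusted p under 0.05, and were lower with voom (adjusted p = 0.047 and 0.012). The shares of all genes under these rules were 21.6%, 18.0% and 12.1%.

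Ratios within a library compare each immunosubunit with the constitutive subunit it replaces. Psmb8 stood at 0.204 ± 0.0142 of the Psmb5 level with DMSO and at 0.205 ± 0.0190 with DASA-58, a difference of the log2 ratios of 0.01 (95% interval -0.26 to 0.27, exact permutation p = 1.0). Psmb9 stood at 0.144 ± 0.00521 of the Psmb6 level with DMSO and at 0.147 ± 0.00536 with DASA-58 (difference 0.03, 95% interval -0.09 to 0.15, exact permutation p = 0.60). Neither ratio differed beyond its spread, and the intervals leave room for shifts of that width. Psmb10 to Psmb7 was 1.95, 1.92 and 2.02 with DMSO and 2.12, 2.19 and 2.13 with DASA-58, so that every treated library lay above every control (difference of the log2 ratios 0.13, 95% interval 0.06 to 0.20, exact permutation p = 0.10, the smallest possible). Psmb10 itself overlapped between the groups and Psmb7 did not. Of the 5 ratios computed, 3 were at that smallest p and none can pass 0.05 in this design. The level of the ratio depends on the lengths used. With principal transcripts the DMSO mean of Psmb10 to Psmb7 was 0.866 in place of 1.96, that of Psmb8 to Psmb5 was 0.353, and that of Psmb9 to Psmb6 was 0.166, while the difference between the groups does not depend on length. Of the 50-base stretches of the principal Psmb5 transcript, 57.1% also occur in transcripts of other genes, and 24.9% of the 100-base stretches do. Of the Psmb8 exons 14.7% overlap Gm20496, and of the Psmb7 exons 11.8% overlap Nek6, both on the opposite strand. Fragments of other genes may therefore enter the Psmb8 to Psmb5 and Psmb10 to Psmb7 ratios.

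**Figure D4:**
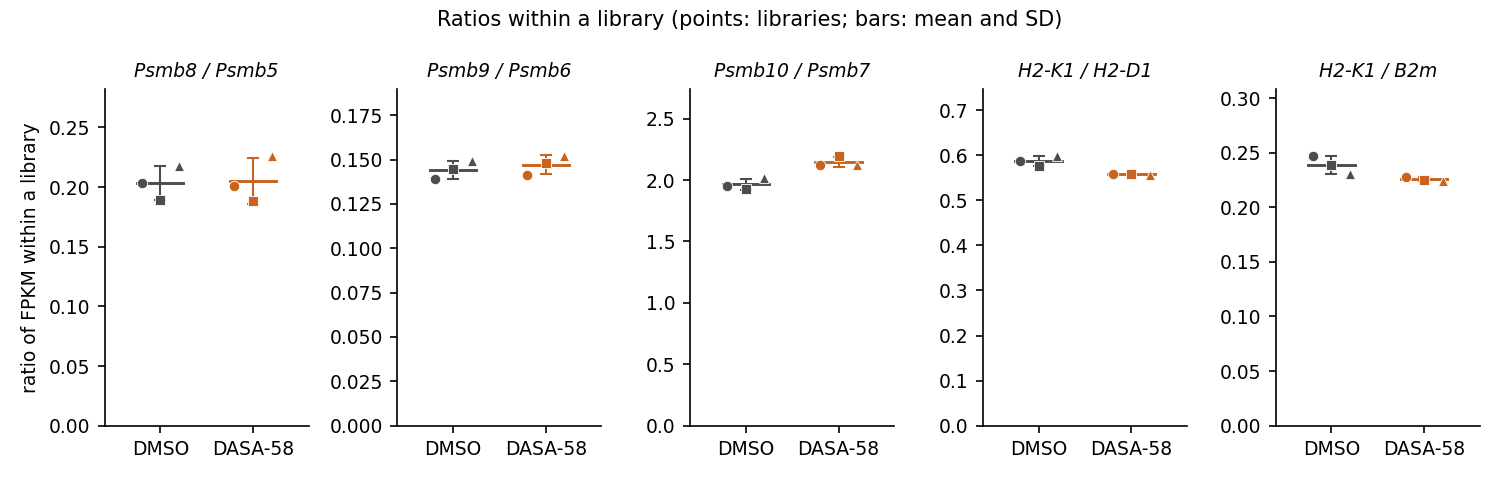
Ratios of FPKM within each library for Psmb8 to Psmb5, Psmb9 to Psmb6, Psmb10 to Psmb7, H2-K1 to H2-D1 and H2-K1 to B2m, with one point per library and bars for mean and SD; axes start at 0. The groups overlap in the first 2 panels and are separate in the other 3.

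Nlrc5 (ENSMUSG00000074151, chr8:94434356-94527272, plus strand) encodes the transactivator that assembles on the promoters of class I genes with RFX, CREB/ATF and NF-Y proteins. It was read at 7.37, 6.84 and 7.11 FPKM with DMSO and at 7.17, 7.18 and 7.11 FPKM with DASA-58. The treated libraries fell inside the range of the controls (log2 fold change 0.01, 95% interval -0.09 to 0.11, adjusted p = 0.92, 1095 to 1148 fragments per library). Of the 16 further regulators of class I genes, 1 was lower and 0 were higher with limma at the adjusted threshold. Irf8, a myeloid transcription factor, was higher at an unadjusted p under 0.05 and with voom (log2 fold change 0.11, limma adjusted p = 0.17, voom adjusted p = 0.043). The lower gene was Irf1, an interferon-induced activator (log2 fold change -0.18, adjusted p = 0.048). It was read at 17.0, 18.2 and 18.8 FPKM with DMSO and at 16.0, 15.1 and 16.2 FPKM with DASA-58. The Irf1 call was lost under 11 of the 17 alternatives, among them the omission of DMSO replicate 2 or 3 or of any treated library (adjusted p between 0.094 and 0.14). Rfx5, the DNA-binding RFX subunit, stood at 1.97 FPKM ± 0.0964 and 1.78 FPKM ± 0.125 (adjusted p = 0.40).

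Interferon gamma signalling held 12 tested genes, of which 3 were lower and 1 was higher. Socs3, a feedback inhibitor of cytokine signalling, was 7.73, 6.95 and 6.90 FPKM with DMSO and 4.81, 4.51 and 4.21 FPKM with DASA-58 (log2 fold change -0.57, adjusted p = 0.0013). Jak2, a kinase bound to the receptor, was lower (log2 fold change -0.19, adjusted p = 0.019), and the third was Irf1. Ifngr1, the ligand-binding receptor chain, was higher, at 122 FPKM ± 2.07 against 132 FPKM ± 2.53 (log2 fold change 0.12, adjusted p = 0.032). The Socs3 call held under all 17 alternatives. The calls of Jak2 and Ifngr1 were lost without DMSO replicate 1 or 3 or without any one treated library (adjusted p between 0.052 and 0.11). The median log2 fold change of the list was -0.04, against -0.03 for all genes.

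The rest of the proteasome was read next to its catalytic subunits. All 11 other subunits of the 20S core had negative fitted values, between -0.11 and -0.03, with a median of -0.09, and 0 of 11 passed the adjusted threshold in either direction with limma. At an unadjusted p under 0.05, 5 of the 11 were lower (against 18.0% of all genes), and voom called 2 lower (against 12.1%). The fitted values of all 11 stayed negative under each of the 17 alternatives, and the median of all genes tested was itself -0.03 by default. Of 9 proteasome activators and assembly factors 1 was lower, namely Psme2, the beta subunit of the PA28 activator that opens the core, at 92.4, 98.8 and 91.1 FPKM with DMSO and 80.0, 82.6 and 82.8 FPKM with DASA-58 (log2 fold change -0.20, adjusted p = 0.013). Its partner Psme1 did not pass (62.6 FPKM ± 2.30 against 61.2 FPKM ± 0.188, adjusted p = 0.58). The Psme2 call was lost without DASA-58 replicate 1 (adjusted p = 0.052), and the difference between the Psme1 and Psme2 responses was not tested. Of 6 cytosolic peptidases, which trim or destroy peptides on their way to the transporter, none was called by limma or by voom, nor at an unadjusted p under 0.05.

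In the endoplasmic reticulum, 3 of 9 folding, trimming and loading genes were lower and none was higher with limma or voom, nor higher at an unadjusted p under 0.05. They were Prkcsh, the noncatalytic beta subunit of glucosidase II, an enzyme that trims glycans of new heavy chains (log2 fold change -0.20, adjusted p = 0.0089), Calr, the chaperone of the peptide-loading complex (-0.14, adjusted p = 0.015), and Hspa5, the general chaperone BiP (-0.13, adjusted p = 0.025). Calr was 378, 361 and 361 FPKM with DMSO and 334, 327 and 333 FPKM with DASA-58, without overlap. Pdia3, the oxidoreductase bound to tapasin, stood at 194 FPKM ± 3.18 and 184 FPKM ± 3.42 (adjusted p = 0.12), and Erap1, the peptidase that trims peptides to length, at 10.0 FPKM ± 0.403 and 10.1 FPKM ± 0.0680 (adjusted p = 0.81). The Prkcsh call held under all 17 alternatives. That of Calr was lost without DASA-58 replicate 2 or 3 (adjusted p = 0.060 and 0.054), and that of Hspa5 without any one library but DMSO replicate 2 (adjusted p between 0.055 and 0.092). These proteins also serve glycoprotein folding in general.

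Of 11 cross-presentation genes, 1 was lower. It was Sec61b, a subunit of the protein translocation channel, at 57.6, 61.4 and 56.4 FPKM with DMSO and 45.8, 51.3 and 51.7 FPKM with DASA-58, without overlap (log2 fold change -0.23, adjusted p = 0.031). The call was lost without DMSO replicate 1 or 2 or DASA-58 replicate 1 or 2 (adjusted p between 0.052 and 0.078).

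Non-classical class I and class I-like chains were given as 29 names, of which 14 reached a mean of 1 FPKM. One was lower and 3 were higher. H2-Q6, a Qa-2 type gene, was lower (log2 fold change -0.22, adjusted p = 0.022). It was read at 17.2, 17.3 and 18.5 FPKM with DMSO and at 14.2, 15.6 and 15.3 FPKM with DASA-58. The H2-Q6 value is uncertain since H2-Q genes are near-identical copies. Mr1, which presents vitamin B metabolites to MAIT cells, was 1.05, 0.842 and 0.854 FPKM with DMSO and 1.62, 1.37 and 1.38 FPKM with DASA-58 (log2 fold change 0.36, adjusted p = 0.034, 93 to 182 fragments per library). The size of the Mr1 value depends on the pseudocount, and over the 16 alternatives that included it, the value lay between 0.13 and 0.67, with 0.67 from voom on the fragments. Hfe, a regulator of iron uptake with a class I fold, was higher (26.0 FPKM ± 0.368 against 28.8 FPKM ± 0.648, adjusted p = 0.027). H2-M3, which presents formylated peptides and is named here because it completes the count, was higher by limma (24.4 FPKM ± 0.537 against 27.0 FPKM ± 0.831, adjusted p = 0.040) and not by voom (adjusted p = 0.083). Each of these 4 calls was lost under some alternatives. That of H2-Q6 held in 12 of 17, that of Hfe in 8 of 17 and that of Mr1 in 7 of 16. Mr1 lost its call without any one library, Hfe without any but DMSO replicate 3, and H2-Q6 without DMSO replicate 3 or DASA-58 replicate 1 or 3 (adjusted p between 0.052 and 0.11), and H2-M3 kept its call in 5 of 17 alternatives.

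**Figure D5:**
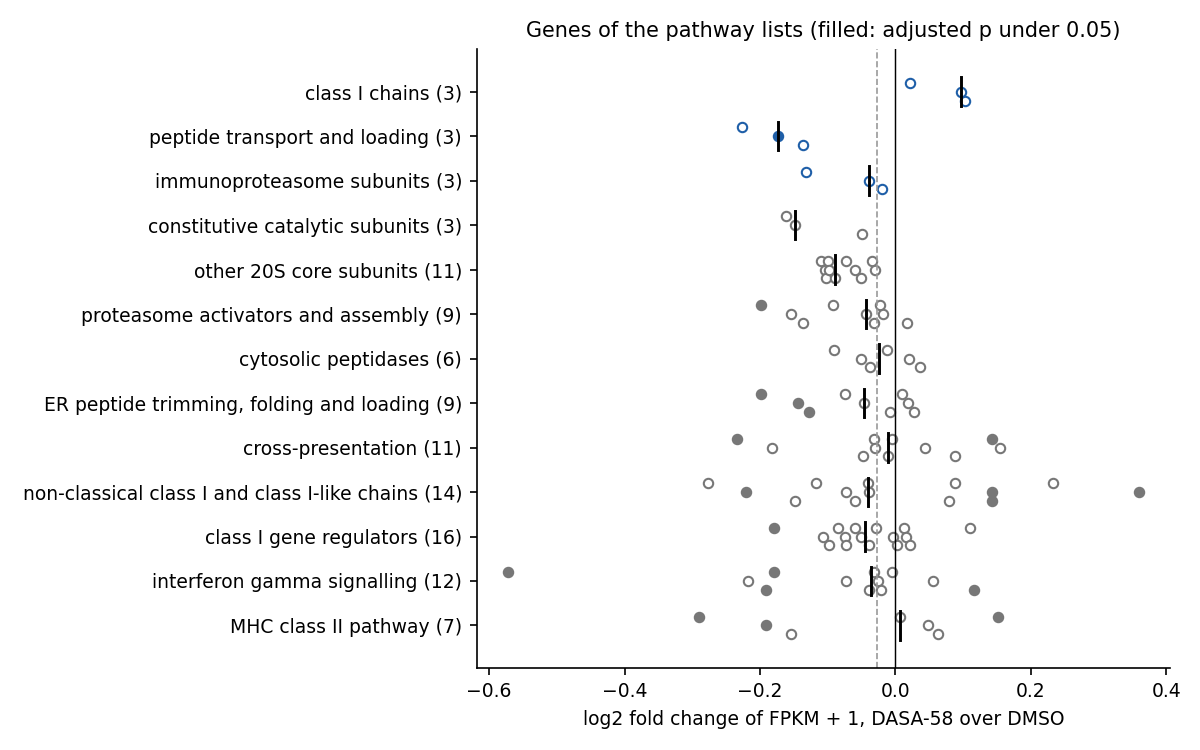
Log2 fold change of FPKM + 1 (DASA-58 over DMSO) for every tested gene of 13 lists, with the number tested in brackets, black bars at list medians, filled points for an adjusted p under 0.05 and a dashed line at the median of all genes tested (-0.03). The class I chains lie to the right of zero, the transport and loading genes, the immunoproteasome, constitutive and other 20S core subunits to the left, and the other 8 lists have genes on both sides.

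The MHC class II pathway, which presents peptides from ingested material, was given as 12 genes, of which 7 were tested. Of these 7, 2 were lower and 1 was higher. The chains H2-Ab1 and H2-Eb1 and the loading genes H2-DMa and H2-DMb1 did not pass with limma (adjusted p between 0.42 and 0.98). Ifi30, a lysosomal thiol reductase, was lower (441 FPKM ± 10.9 against 387 FPKM ± 6.51, log2 fold change -0.19, adjusted p = 0.0049), as was Cd74, the invariant chain (8.94 FPKM ± 0.909 against 7.11 FPKM ± 0.119, log2 fold change -0.29, adjusted p = 0.029). Ctss, the protease that degrades the invariant chain, was higher (1820 FPKM ± 50.4 against 2021 FPKM ± 39.1, log2 fold change 0.15, adjusted p = 0.015). The Ifi30 call held under all 17 alternatives, that of Cd74 was lost without DMSO replicate 1 or any one treated library, and that of Ctss without DMSO replicate 1 or DASA-58 replicate 2 or 3 (adjusted p between 0.050 and 0.084).

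A list of 9 receptors of myeloid cells, most of them inhibitory or activating receptors akin to class I receptors, had 6 tested genes. With limma, 3 of the 6 were higher and 0 were lower. Voom and an unadjusted p under 0.05 each gave 4 higher and 0 lower. Pirb, a receptor for class I molecules, was not among them (log2 fold change 0.02, adjusted p = 0.71). The 3 were Pilra (0.24, adjusted p = 0.0092), Pilrb1 (0.26, adjusted p = 0.027) and Lilrb4a (0.21, adjusted p = 0.029), paired receptors that are not known mainly for binding class I molecules. The Pilra call held without each library in turn, whereas Pilrb1 kept it in 8 of 16 alternatives and lost it without any one library but DMSO replicate 1, and Lilrb4a kept it in 8 of 17 and lost it without replicate 1 or 2 of either group.

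Cell type markers moved with the treatment beside these results. Of 12 macrophage markers, 7 were higher and 1 was lower, and the examples with the smallest p were Adgre1, C1qb and C1qc. Of 9 tested osteoclast markers, 9 were lower, with Ctsk at a log2 fold change of -0.93, and the summed level of the 10 measured went from between 778 and 833 FPKM with DMSO to between 449 and 467 FPKM with DASA-58. This list, like the other marker lists, was chosen with earlier results of these data known. Of 7 tested neutrophil markers, 3 were lower (S100a9, Camp and S100a8), and the sum of the 8 measured was between 127 and 133 FPKM with DMSO and between 103 and 107 FPKM with DASA-58. The summed level of 8 dendritic cell markers was between 2.23 and 3.08 FPKM over all libraries, with 0 of them reaching the test. The sum of 12 T and NK cell markers was between 6.48 and 8.12 FPKM and that of 5 B cell markers between 2.78 and 4.20 FPKM. For 7 stromal markers the sum was between 34.6 and 36.8 FPKM. No marker on these lists was at 0 in all 6 libraries, and none of the last 4 lists had a gene past the adjusted threshold with limma. Only 1 T and NK cell, 2 B cell and 3 stromal markers reached the test, so the lack of calls says little about these cells. Col3a1, a collagen of the stromal list, was lower at an unadjusted p under 0.05 and with voom (log2 fold change -0.21, limma adjusted p = 0.13, voom adjusted p = 0.0088). The part of the macrophage, osteoclast and neutrophil markers in the results for the class I genes was not tested.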

How the data were processed

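RNA was measured in 6 libraries of BMMs, 3 with DMSO and 3 with DASA-58, grouped by the treatment label. The authors deposited FPKM per gene in 1 table. The submitters' processing notes name HISAT2 2.1.0, HTSeq 0.6.0 and the build mm8. How strand and multiply matching reads were treated is not given in the sources used here. Genes were matched by Ensembl identifier to GENCODE M21 (GRCm38), from which the coordinates come, so that they are not those of mm8. With its exon lengths the FPKM of 21367 genes (90.9%) were whole fragments within 0.02 in all libraries, and a fitted length served for 2136 more, H2-K1, Tapbp, Psmb8, Psmb9 and Psmb5 among them.

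The members, gene lists and tests were chosen with earlier results of these data known. DASA-58 was set against DMSO in limma 3.58.1 (R 4.3.3; lmFit, eBayes with a trend, Benjamini-Hochberg adjustment) on log2(FPKM + 1), for genes whose mean reached 1 FPKM. The script was tested on simulated data. Ratios were compared with exact permutation tests (SciPy 1.17.1) on log2 ratios, and their 95% intervals assume normal spread. Named were the members, their constitutive counterparts, 8 fixed genes of loading and regulation, and up to 3 genes with the smallest p among those called in each other list. Results for 2 of these genes are not reported here. Pirb, H2-M3, Irf8, Col3a1, H2-Ab1, H2-Eb1, H2-DMa and H2-DMb1 were named after their values were seen. The alternatives were pseudocounts of 0.1 and 5, no filter, at least 5 FPKM, quantile normalization, equal totals, centring on the median, no trend, no shrinkage, the replicate block, voom on recovered fragments and each library left out. Principal transcript lengths were added after seeing the data. Motifs were searched with Python 3.11.15.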

Additional observations from a re-analysis of the deposited data

How the results depend on the processing

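Counts of genes past an adjusted p of 0.05 moved with the settings. All genes gave 798 lower and 465 higher, and 372 and 257 with no filter on low values, 314 and 227 without variance shrinkage, 1327 and 742 with voom weights, 515 lower without a variance trend and 504 lower against 597 higher with centring on the median. Quantile normalization gave 588 lower and 600 higher, and equal totals 958 and 386. Leaving out each library in turn gave between 385 and 604 lower and between 273 and 373 higher.

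Of the 10 members, 1 was lower by default. The count was 0 with no filter, centring on the median, no trend or no shrinkage, 2 with at least 5 FPKM and 3 with voom, and between 0 and 1 when a library was left out (0 without DMSO replicate 1 or 2 or DASA-58 replicate 1 or 2). Members higher were 0 by default, 2 with at least 5 FPKM or voom, 1 with equal totals or centring on the median, and between 0 and 1 when a library was left out (1 without DMSO replicate 2). The median over the members stayed between -0.06 and -0.003.

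Signs turned for values near zero. The log2 fold change of Psmb9 was 0.0050 with quantile normalization and 0.0067 with centring, and between -0.065 and 0.028 when a library was left out (0.024 without DASA-58 replicate 1). That of Nlrc5 was -0.0061 with equal totals and between -0.015 and 0.032 when a library was left out, and that of Erap1 was then between -0.012 and 0.037. The log2 ratio difference of Psmb8 to Psmb5 lay between -0.063 and 0.067 when a library was left out (-0.043 without DMSO replicate 2), and that of H2-K1 to H2-D1 was 0.017 with quantile normalization. The causes were not tested.

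The replicate block gave 579 lower and 378 higher genes, 0 members lower (Tapbp at an adjusted p of 0.050) and 1 higher (B2m, 0.048). Deviations of same-numbered libraries correlated at -0.015, 0.016 and -0.016, so they shared little across genes. Whether same-numbered libraries came from a common animal or culture is not stated, and these correlations cannot settle it.

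Over 46 named genes and 17 settings, 623 of 779 values kept their direction and side of the threshold, 133 lost the call (19 genes), 16 gained it (6 genes) and 7 turned sign (3 genes).

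The limits are these. With 3 libraries in each group, H2-D1, B2m, Tap1 and Psmb8, whose means differed by under 10%, stood at adjusted p-values between 0.054 and 0.11, on either side of the threshold according to the setting for all but Psmb8. Counting error adds to the spread of members with few fragments, such as Tap2 with 527 in its lowest library. Levels of different genes depend on exon lengths, and fragments shared by paralogs or overlapping genes cannot be assigned. Cell composition and RNA per cell cannot be told apart.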
